A study of Lolium arundinaceum with 6 samples.

Results

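The 7 unigenes described here are from the study's list of the ubiquitin pathway, which tags proteins with ubiquitin and takes tagged proteins apart. By the names of their matches, 3 are proteasome subunits (PAE1, PAF1 and a 26S regulatory subunit). UBL5 is a ubiquitin-like protein, and 3 are ubiquitin-conjugating (E2) enzymes (UBC2, UBC28 and PHO2). These 7 members were chosen by their identifiers in the assembled transcriptome of tall fescue, a cool-season grass, and are 7 of 179680 unigenes in the table. A unigene is an assembled sequence that stands for a gene, and its name here is that of the Arabidopsis or rice protein it matched best in the study's list of the ubiquitin pathway. All 7 were among the 28005 unigenes with enough counts to be tested, and none of them had fewer than 30 counts in any library.

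The libraries were made from leaves of 10-day-old seedlings of the variety Fire Phoenix II (tall fescue is an outcrossing grass, so a variety is not an inbred line). The control group (labelled 0 h) was grown at 23 °C without heat, and the heat groups were held at 38 °C for 2 h or for 12 h, with 2 libraries in each of the 3 groups. The methods call the 2 libraries of a group biological replicates, and neither they nor the labels say which plants went into which library. Both heat groups were compared with the same controls, so hours in heat and hours since the controls were taken cannot be told apart. Total counts were 6349776 to 7891567 per library, at which 3 counts correspond to 0.359 to 0.508 counts per 1000000 counts of a library scaled by TMM (CPM). The 2 heat markers, HSC70-1 and the chloroplast chaperone HSP21, had a summed level of 474 and 487 CPM without heat, 19509 and 18991 CPM after 2 h of it, and 27436 and 28025 CPM after 12 h. Of the 6 unigenes matched to leaf photosynthesis proteins, 4 were above 3 counts in both controls. A unigene matched to LHCB1.3, c138665_g1, and a unigene matched to PSAK, c178872_g1, were at or below that level there. The summed level of the 6 was 12576 and 12766 CPM in the unheated libraries, 9071 and 7188 CPM in those of 2 h, and 4284 and 4122 CPM in those of 12 h, and the part of this fall in the results below was not tested. In whole leaves, fewer cells of a type and less RNA per cell cannot be told apart.

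Ubiquitin is attached to a protein by a chain of enzymes: an activating enzyme (E1) passes it to a conjugating enzyme (E2), which delivers it to the target with the help of a ligase (E3). Proteins that carry ubiquitin chains are unfolded and cut up by the 26S proteasome, a barrel-shaped core whose end rings are built of alpha subunits and whose ends are capped by regulatory particles. Heat unfolds proteins, and plant leaves use the pathway, beside the heat shock chaperones, to remove those that cannot be refolded.

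Each change below is a log2 fold change from edgeR's quasi-likelihood test over all 6 libraries, with its standard error and a p-value adjusted (Benjamini-Hochberg) over the 28005 unigenes. A unigene was called changed at a fold of at least 2 with an adjusted p of at most 0.05. After 2 h of heat 1 member rose, the 26S regulatory subunit, and 2 fell, UBC28 and PHO2, while 4 were not called. Among all unigenes tested, 15.1% were called higher and 8.98% lower in that comparison. After 12 h all 7 were called: the 3 proteasome subunits, UBL5 and UBC2 rose, and UBC28 and PHO2 fell. The shares over all unigenes were then 25.3% higher and 23.3% lower. Between 2 h and 12 h, 4 members rose (PAE1, PAF1, UBL5 and UBC2), PHO2 fell, and 2 were not called, against 16.2% higher and 19.6% lower over all unigenes. The median change of the 7 was 0.17 at 2 h, 1.42 at 12 h and 1.27 between 12 h and 2 h, beside medians of 0.05, 0.00 and -0.09 over all unigenes tested. The study drew its ubiquitin pathway list from unigenes that changed in these same libraries, so the number of members called is not independent evidence that the pathway responded.

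**Figure D1:**
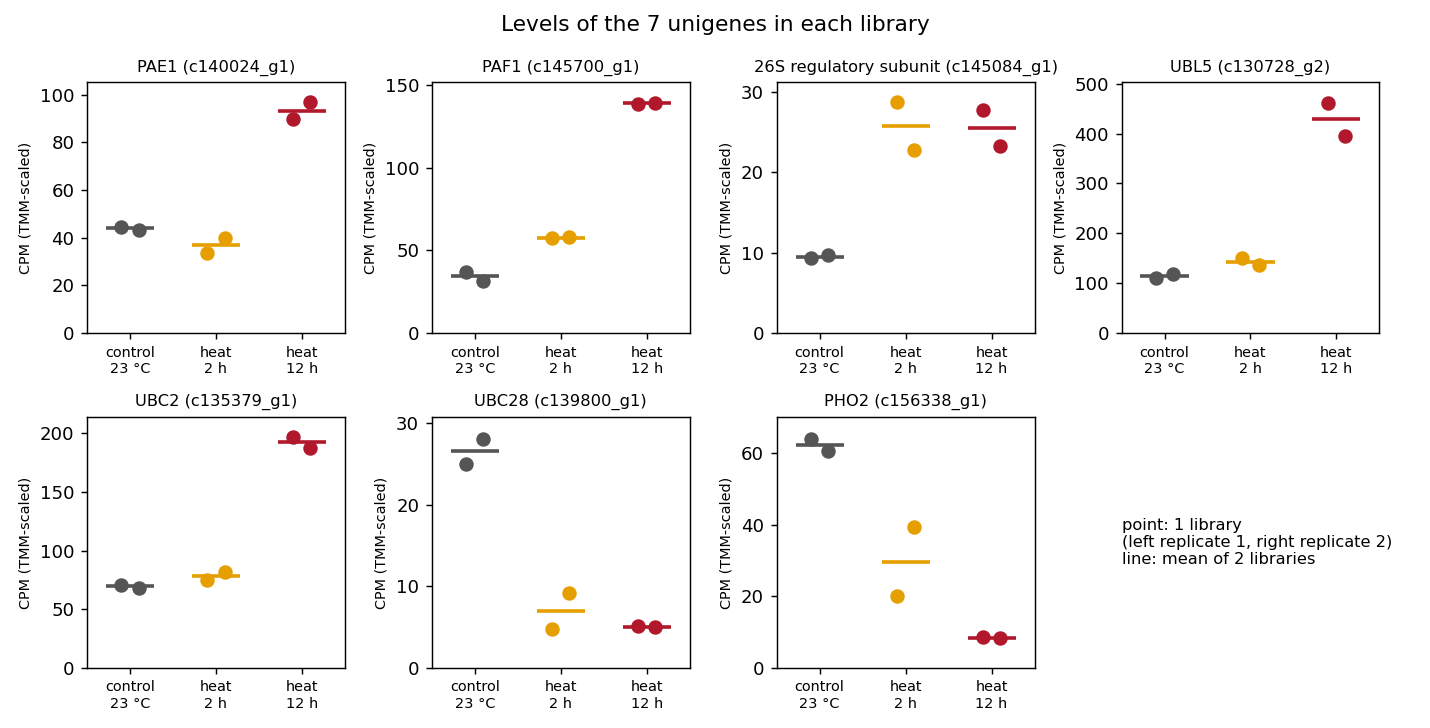
Level of each of the 7 unigenes (y axes, CPM scaled by TMM, each starting at 0) in the control, 2 h and 12 h groups (x axes). Points are single libraries and lines the mean of 2. UBL5 stood at 461 and 395 CPM in the 12 h libraries against 111 and 119 CPM without heat, and PHO2 at 8.47 and 8.21 CPM against 63.9 and 60.6 CPM.

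PAE1 (c140024_g1) is an alpha subunit of the proteasome core, part of the end ring through which substrates enter. Its level was 44.6 and 43.1 CPM without heat, 33.6 and 39.9 CPM after 2 h of it, and 89.6 and 97.0 CPM after 12 h. Both libraries at 2 h were below both controls, and both at 12 h were above all the others. The difference at 2 h was not called (log2 fold change -0.26 ± 0.17 SE, n = 2 per group, edgeR adjusted p = 0.264), and its 95% interval ran from -0.62 to 0.11. The rise at 12 h was called (1.09 ± 0.17 SE, adjusted p = 0.000143), and so was the rise from 2 h to 12 h (1.34 ± 0.17 SE, adjusted p = 7e-05). With c140024_g1 taken by itself, PAE1 had the smallest 12 h change of the 7. With library totals as the only scaling that change was 0.98, just under the fold limit.

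PAF1 (c145700_g1) is the neighbouring alpha subunit of the same ring. It had 36.9 and 31.6 CPM without heat, 57.2 and 58.0 CPM after 2 h of it, and 139 CPM in each 12 h library. The 3 groups did not overlap, with the 2 h libraries between the controls and the 12 h libraries. At 2 h the difference was 0.75 ± 0.16 SE with an adjusted p of 0.00354 in edgeR, which was under the fold limit and so not called (95% interval 0.40 to 1.10). At 12 h PAF1 rose by 2.02 ± 0.16 SE, or 4.05-fold (edgeR adjusted p = 8.29e-07). The rise between 2 h and 12 h was 1.27 ± 0.16 SE (edgeR adjusted p = 7.01e-05), and it was 0.998, marginally under the limit, with library totals as the only scaling.

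The ratio of PAF1 to PAE1 counts was 0.827 and 0.733 in the controls, 1.70 and 1.45 at 2 h, and 1.55 and 1.43 at 12 h. Transcript lengths were not used here, so the ratio does not say which subunit had more transcripts, but its change between libraries does not depend on length or scaling. The ratio was higher in all 4 heated libraries than in both controls, and the 2 h and 12 h libraries overlapped.

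The assembly placed another unigene, c140024_g2, in the same component as PAE1, a component being a group of sequences that share stretches and can therefore share reads. It had 0 counts in both controls, 139 and 107 counts at 2 h, and 258 and 272 counts at 12 h. Against a floor of 3 counts over the control group it was at least 71.9-fold higher at 2 h and at least 196-fold higher at 12 h. Every heated library thus held counts for it and neither control did, and the sources used here give it no name. It held 33.1% and 26.5% of the component's counts at 2 h and 32.8% and 29.9% at 12 h. When the unigenes of the component were summed, PAE1's difference at 2 h was 0.25 ± 0.16 SE (edgeR adjusted p = 0.237), of opposite sign to that of c140024_g1 by itself and likewise not called. The summed rise at 12 h was 1.63 ± 0.16 SE (edgeR adjusted p = 3.54e-06). In that fit the 26S regulatory subunit, not PAE1, had the smallest 12 h change of the members, at 1.42 ± 0.22 SE. The ratio of PAF1 to the summed component was 1.14 and 1.07 at 2 h and 1.04 and 1.004 at 12 h, still above both controls but nearer to them. The sum was chosen after the data had been seen, and whether c140024_g2 is a second form of PAE1 was not tested.

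**Figure D2:**
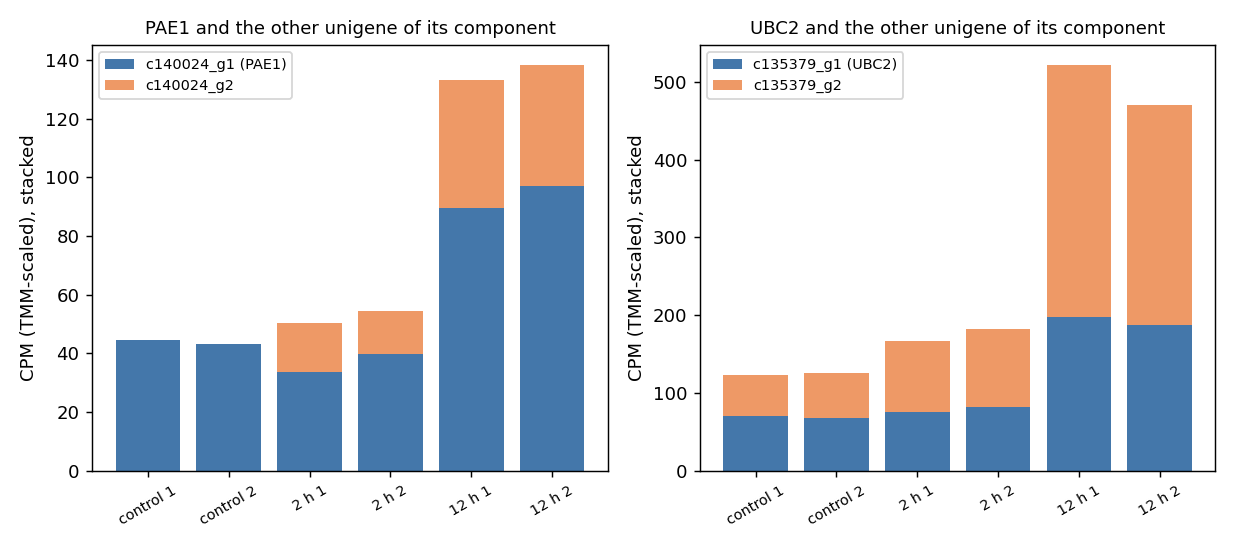
Stacked levels (y axes, CPM scaled by TMM, from 0) of PAE1 and c140024_g2 (left) and of UBC2 and c135379_g2 (right) in the 6 libraries (x axes). The upper segment is missing from both controls on the left, and on the right it made up 42.7% and 46.0% of the component's counts in the controls and 62.2% and 60.2% at 12 h.

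The 26S regulatory subunit (c145084_g1) matched non-ATPase subunit 9, whose yeast and mammalian counterparts are chaperones that help assemble the base of the regulatory particle. It is counted among the proteasome subunits here by the name of its match only. It had 9.34 and 9.67 CPM in the unheated libraries, 28.7 and 22.7 CPM in those of 2 h, and 27.8 and 23.3 CPM in those of 12 h. All 4 heated libraries were above both controls, and the 2 h and 12 h libraries overlapped. The rise was 1.43 ± 0.22 SE at 2 h (edgeR adjusted p = 0.000339) and 1.42 ± 0.22 SE at 12 h (adjusted p = 0.000161). It was the member whose level differed least between the heat groups, by -0.01 ± 0.20 SE (edgeR adjusted p = 0.962). The 95% interval of that difference, -0.45 to 0.42, leaves room for a change of either sign within it. The ratio of PAF1 to the regulatory subunit in counts was 3.95 and 3.27 in the controls, 1.99 and 2.56 at 2 h, and 4.99 and 5.97 at 12 h. That ratio was therefore lowest at 2 h and highest at 12 h, with no overlap among the 3 groups.

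UBL5 (c130728_g2) is a small ubiquitin-like protein that lacks the end by which ubiquitin is joined to targets, and its yeast and human counterparts act in pre-mRNA splicing. Its level was 111 and 119 CPM without heat, 150 and 136 CPM after 2 h of it, and 461 and 395 CPM after 12 h. The groups did not overlap, and the 2 h libraries lay much nearer to the controls than to the 12 h libraries. At 2 h the difference was 0.31 ± 0.15 SE and not called (edgeR adjusted p = 0.128). At 12 h UBL5 rose by 1.90 ± 0.15 SE, or 3.73-fold (edgeR adjusted p = 8.25e-07). From 2 h to 12 h it rose by 1.59 ± 0.15 SE (edgeR adjusted p = 1.14e-05). The other unigene of its component, c130728_g1, had at most 2 counts in any library and was not tested.

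Of the 3 E2 enzymes, 1 rose and 2 fell. UBC2 (c135379_g1) matched an Arabidopsis homologue of yeast RAD6, the E2 that places ubiquitin on histone H2B. It had 70.7 and 68.1 CPM in the unheated libraries, 74.9 and 81.5 CPM in those of 2 h, and 197 and 187 CPM in those of 12 h. The 2 h libraries lay just above the controls, and the 12 h libraries stood clear of all the others. The difference at 2 h was 0.17 ± 0.15 SE (edgeR adjusted p = 0.408, 95% interval -0.15 to 0.50). UBC2 rose by 1.47 ± 0.15 SE at 12 h (edgeR adjusted p = 6.01e-06) and by 1.299 ± 0.15 SE from 2 h to 12 h (edgeR adjusted p = 4.26e-05).

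UBC2 shared its component with c135379_g2, which the sources used here do not name. That unigene had 52.7 and 58.0 CPM without heat, 92.0 and 100.1 CPM after 2 h of it, and 324 and 283 CPM after 12 h. Its share of the component's counts was higher in every heated library than in either control, at 55.1% in both 2 h libraries. It rose by 2.46 ± 0.16 SE at 12 h (edgeR adjusted p = 1.46e-07), while the 0.79 ± 0.15 SE at 2 h was under the fold limit (edgeR adjusted p = 0.00199). For the summed component the differences were 0.48 ± 0.14 SE at 2 h, not called, and 1.99 ± 0.15 SE at 12 h.

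UBC28 (c139800_g1) matched a member of the large group of plant E2 enzymes that work with many RING-type ligases. The genes of that group are alike in sequence, so its reads may be split with close relatives. Its level was 24.97 and 28.1 CPM in the unheated libraries, 4.78 and 9.13 CPM in those of 2 h, and 5.08 and 5.02 CPM in those of 12 h. Both controls were above all 4 heated libraries, and the 12 h values lay between the 2 h values. UBC28 had a log2 fold change of -1.94 ± 0.28 SE at 2 h (edgeR adjusted p = 0.000236) and of -2.39 ± 0.30 SE at 12 h (edgeR adjusted p = 3e-05), both called falls. The difference between 12 h and 2 h was -0.45 ± 0.32 SE (edgeR adjusted p = 0.267, 95% interval -1.15 to 0.25). That difference turned on the 2 h libraries: without the first it was -0.84 and without the second 0.11, neither past the fold limit.

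The ratio of UBC2 to UBC28 counts was 2.83 and 2.42 in the controls, 15.7 and 8.93 at 2 h, and 38.8 and 37.4 at 12 h. The 3 groups did not overlap on this ratio.

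PHO2 (c156338_g1), also known as UBC24, is an unusually large E2 that in Arabidopsis marks phosphate transporters for degradation and so limits phosphate uptake. It had 63.9 and 60.6 CPM without heat, 19.97 and 39.2 CPM after 2 h of it, and 8.47 and 8.21 CPM after 12 h. The groups did not overlap and the level stepped down from control to 2 h to 12 h, with the 2 h libraries far apart. The 3 falls were all called, with log2 fold changes of -1.08 ± 0.25 SE at 2 h (edgeR adjusted p = 0.00627), -2.90 ± 0.29 SE at 12 h (edgeR adjusted p = 4.88e-06) and -1.82 ± 0.29 SE from 2 h to 12 h (edgeR adjusted p = 0.0004). The fall at 2 h rested on the first 2 h library: without it the difference was -0.66, under the fold limit, and without the second it was -1.66. It was also under the limit with library totals as the only scaling, at -0.92, and when every library had to hold at least 10 counts, at -0.99. The 12 h difference was between -2.94 and -2.83 whichever library was left out.

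**Figure D3:**
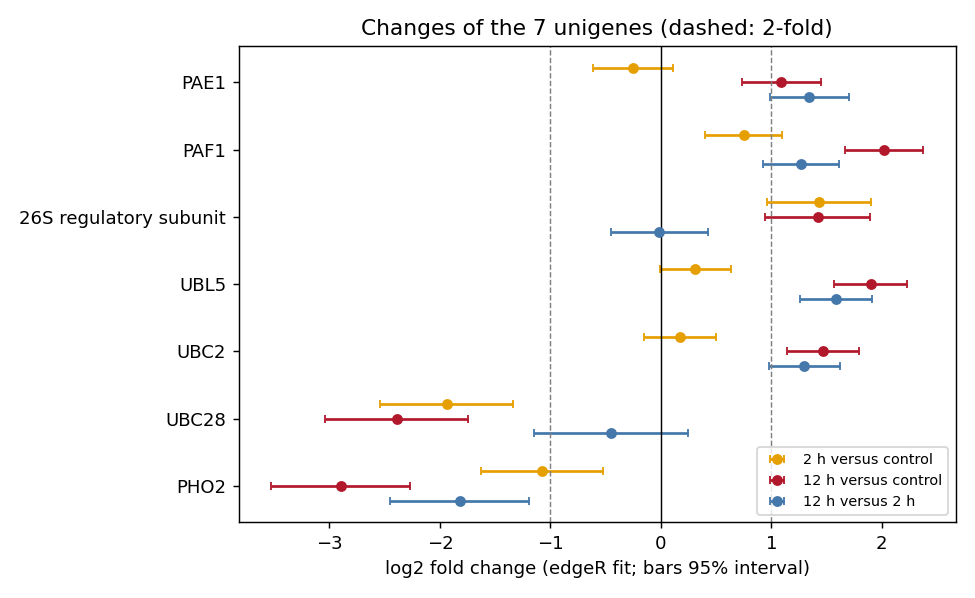
Log2 fold changes of the 7 unigenes (rows) for 2 h against control, 12 h against control and 12 h against 2 h (x axis, edgeR fit). Points are estimates, bars 95% intervals and dashed lines the 2-fold limit. At 12 h against control all 7 points lie beyond a dashed line, from -2.90 for PHO2 to 2.02 for PAF1, and the 12 h against 2 h bars of the 26S regulatory subunit and UBC28 cross 0.

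The members' likeness to each other was described by the root mean square (RMS) difference of their log2 CPM over the 6 libraries, after each was centred on its own mean, so that 0 is an identical course. UBC2 was closest to UBL5 and to PAE1, at 0.203 in both pairs, and PAF1 was at 0.221 from UBL5. The members that fell, UBC28 and PHO2, were at 0.550 from each other. PAF1 and PHO2 were the farthest pair, at 2.01.

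The same measure was taken against the 127 other unigenes of the study's ubiquitin pathway list with a strong match and a mean of at least 10 CPM. The closest to PAE1 was PBC1 (c139086_g1), a beta subunit of the proteasome core, at 0.083, followed by a RING/U-box protein (c154897_g1) at 0.090. For PAF1 the closest were a RING/U-box protein (c146888_g1) at 0.069 and SLY1 (c148969_g1), the F-box protein of gibberellin signalling, at 0.114. For the 26S regulatory subunit they were FBL17 (c151834_g1), an F-box protein that acts in the plant cell cycle, at 0.178 and a RING/U-box protein (c145007_g1) at 0.215. Each of these unigenes had a course close to that of the named proteasome subunit in all 6 libraries.

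UBL5 was closest to a RING/U-box protein (c149693_g1) at 0.108 and to AFR (c151977_g1), an F-box protein of far-red light signalling in Arabidopsis, at 0.143. UBC2 was closest to a RING/U-box protein (c152765_g1) at 0.079 and to a ubiquitin family protein (c137206_g1) at 0.089. By the RMS difference, members that fell had looser neighbours. Those of UBC28 were PIT1 (c143010_g1) at 0.424 and a Copine family protein (c152087_g1) at 0.447, and those of PHO2 were an RNA-binding protein (c152788_g2) at 0.280 and a RING/U-box protein (c155110_g1) at 0.296. With Pearson's correlation as the measure, 6 of the 14 pairs were the same. By that measure the closest neighbours of UBC28 and PHO2 were at 0.990 and 0.991, within the 0.983 to 0.997 of the members that rose.

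The rest of the pathway was read from the same list, split by name into 10 proteasome subunits, 12 ubiquitin and ubiquitin-like proteins, 2 E1 enzymes, 10 E2 enzymes and 15 ubiquitin proteases, the members included. Since the study chose these unigenes for having changed in these libraries, the counts are not independent evidence of a direction. Over all unigenes tested, 15.1% were called higher and 8.98% lower at 2 h, with a median of 0.05. At 12 h those shares were 25.3% and 23.3%, with a median of 0.00. After 12 h, 9 of the 10 proteasome unigenes rose and 1 fell, with a median of 1.21. The number called at 12 h was 7 with library totals as the only scaling. It was also 7 when every library had to hold at least 10 counts. After 2 h, 3 rose, none fell and 7 were not called (edgeR), with a median of 0.16. At an unadjusted p under 0.05 that comparison had 4 higher and 0 lower, and DESeq2 called 2 higher and 0 lower. The count at 2 h was 1 without the second control library and 1 without the first 2 h library.

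Among the other core subunits, PBC1 had group means of 23.1, 21.3 and 51.1 CPM in the control, 2 h and 12 h libraries and rose by 1.14 ± 0.18 SE at 12 h (edgeR adjusted p = 0.000209). PAA2 (c142625_g1), another alpha subunit, rose by 1.07 ± 0.16 SE at 12 h (edgeR adjusted p = 0.000158) and differed by 0.07 ± 0.16 SE at 2 h. Like PAE1, both were near their control level at 2 h and called only at 12 h, though differences between subunits were not tested. PAF2 (c143743_g1), a weak match, rose at both times, by 1.81 ± 0.63 SE (edgeR adjusted p = 0.0427) and 2.93 ± 0.59 SE, from a control mean of 0.94 CPM to a 12 h mean of 6.84 CPM. Its libraries were far apart in the controls, at 10 and 2 counts, and at 2 h, at 35 and 15 counts. PAF1 and PAF2 matched the same rice protein, so their reads may be shared.

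In the regulatory particle, RPT3 (c143062_g1), one of the ATPases of its base, rose by 1.001 ± 0.21 SE at 12 h (edgeR adjusted p = 0.00153), just past the fold limit. The lid subunit RPN5A (c144887_g1) rose at both times, as the 26S regulatory subunit did. RPN5A's changes were 1.13 ± 0.32 SE at 2 h (edgeR adjusted p = 0.0168) and 1.27 ± 0.32 SE at 12 h. The 2 h libraries of RPN5A were far apart, at 123 and 60 counts. A unigene matched to AT4G19006 (c149789_g1), a lid subunit of the RPN9 type, differed by 0.06 ± 0.20 SE at 2 h and rose by 1.51 ± 0.19 SE at 12 h (edgeR adjusted p = 3.4e-05). The exception was the lid subunit RPN3 (c143360_g1), with means of 5.03, 6.02 and 1.47 CPM in the control, 2 h and 12 h groups, which fell by 1.74 at 12 h (SE 0.57, edgeR adjusted p = 0.0191). Its 12 h libraries were far apart, at 3 and 16 counts.

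The E2 list split in both directions. After 12 h 4 of its 10 unigenes rose and 6 fell (median -1.33), and after 2 h 1 rose, 3 fell and 6 were not called (median -0.95). Over all unigenes the shares called were 25.3% higher and 23.3% lower at 12 h, and 15.1% and 8.98% at 2 h. With the 2 weak matches left out, 4 rose and 4 fell at 12 h. Without the second control library 2 were called at 2 h. Besides UBC2, AHUS5 (c134740_g1), the E2 for the ubiquitin-like protein SUMO, rose by 1.22 ± 0.17 SE at 12 h (edgeR adjusted p = 6.1e-05), and UBC18 (c143538_g1) rose by 1.02 ± 0.19 SE. Besides PHO2 and UBC28, UBC1 (c137860_g1), a weak match to another RAD6 homologue, fell by 3.31 at 12 h (SE 0.61). Its 12 h counts, 1 and 3, were not above the floor of 3. UBC25 (c151080_g1), of the same E2 family as PHO2, fell by 1.44 at 12 h (SE 0.36, edgeR adjusted p = 0.00437).

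Of the 11 ubiquitin and ubiquitin-like unigenes tested, 7 rose and 3 fell at 12 h (median 1.21), beside 25.3% higher and 23.3% lower over all unigenes. At 2 h edgeR called 0 of them (median 0.02), while 2 were higher and 1 lower at an unadjusted p under 0.05, DESeq2 called 0, and without the second 2 h library edgeR called 1. A ubiquitin-like protein (c147854_g1) rose by 1.36 ± 0.18 SE at 12 h, and a unigene that the list names as a pentatricopeptide repeat protein (c153780_g1) rose by 1.21 ± 0.17 SE. UBQ3 (c150089_g1), a polyubiquitin, went the other way from UBL5 and fell by 3.02 at 12 h (SE 0.59, edgeR adjusted p = 0.00086), from a mean of 3.36 CPM to 0.39 CPM. Its 12 h counts, 1 and 4, were near the floor of 3. Another ubiquitin-like protein (c137645_g1) fell by 3.89 (SE 0.69) from 4.91 CPM to 0.30 CPM, with 0 and 4 counts at 12 h.

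**Figure D4:**
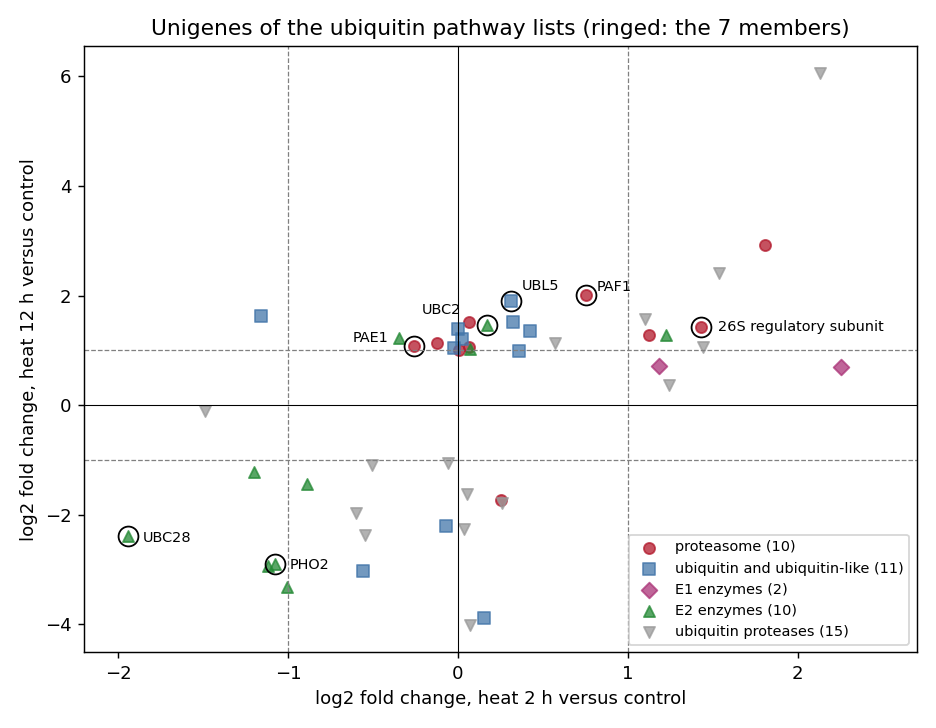
Log2 fold change at 2 h (x axis) against that at 12 h (y axis), both against the same controls, for the tested unigenes of the 5 pathway lists (symbols). Rings mark the 7 members and dashed lines the 2-fold limit. The proteasome unigenes lie above the 12 h limit except RPN3 at -1.74, and the E2 enzymes lie on both sides, from -3.31 for UBC1 to 1.47 for UBC2. UBC1 had 1 and 3 counts at 12 h.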

How the data were processed

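Leaf RNA of 6 tall fescue libraries (3 groups of 2) was sequenced. The methods state that the authors used Trinity for assembly and RSEM for estimated counts. The submitters' processing notes also name Bowtie2 2.2.3, TopHat2 2.0.12, HTSeq 0.6.1 and DESeq 1.18.0. The deposited expected counts per unigene were not normalized (0.157% of values were not whole) and were rounded here. Unigenes were kept by filterByExpr (minimum count 10), which left 28005 with 97.7 to 98.4% of the counts, scaled by TMM and tested with edgeR 4.0.16 in R 4.3.3 with 1 coefficient per group. CPM are counts per 1000000 TMM-scaled counts. DESeq2 1.42.0, other scalings and filters, a replicate block, leaving out each library, and component sums (added after seeing the data) were alternatives. Counting carried no molecular identifiers, so the floor of 3 counts covers counting error only. The members and lists were chosen with earlier results of these data known. Unigenes named besides the members were all others of the proteasome list, the 2 with the smallest adjusted p at 12 h in each direction of the other lists, and the 2 most similar to each member, with 0.5 CPM added before taking logs. A weak match had an E-value above 1e-05 in the study's list, whose own fold changes were not used. The fit was tested on simulated data with the same spread in all groups and changes at 12 h only. That simulation did not include the larger spread of the 2 h libraries, so it says nothing about the calls at 2 h. Sequences were not used here.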

Additional observations from a re-analysis of the deposited data

Results flagged for a closer look

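The effect of heat at 12 h differed from that at 2 h in 5 of the 7 unigenes by a test of the difference itself. That test is the direct comparison of the 12 h with the 2 h libraries, since both effects use the same controls. Over all unigenes tested, 16.2% were called higher and 19.6% lower in that comparison. The members belong to a list chosen for change in these libraries, so the count is not independent evidence. The 12 h effect was larger by 1.34 for PAE1, 1.27 for PAF1, 1.59 for UBL5 and 1.299 for UBC2 on the log2 scale. For PHO2 the difference was -1.82, a deeper fall at 12 h. With 2 libraries per group no single library could be tested for standing apart from its group.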

How the results depend on the processing

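Of 315 member values under 15 alternatives, 309 kept their side of the limits, 5 lost the call and 1 gained it. The sign changed in 9, of which 0 were called in either fit: 7 of the 26S regulatory subunit between 12 h and 2 h (up to 0.18), PAE1 at 2 h with component sums (0.25), and UBC28 between 12 h and 2 h without the second 2 h library (0.11). The lost calls were those given above for PHO2 at 2 h, PAE1 at 12 h (0.98) and PAF1 between 12 h and 2 h (0.998), and PAF1 at 2 h (0.75) was called when no minimum fold was asked. The replicate numbers did not pair the libraries (correlations of same-numbered deviations -0.05, 0.04 and -0.04), and a fit with the replicate number as a block called 3, 7 and 5 members in the 3 comparisons, as the fit without it did. Leaving out 1 library at a time, which leaves a lone library assumed to vary like the others, gave 2 to 3, 7 and 5 members. In the same runs the lists gave, at 2 h, 1 to 3 proteasome unigenes, 0 to 1 ubiquitin and ubiquitin-like, 0 to 2 E1, 2 to 4 E2 and 2 to 5 ubiquitin proteases, and at 12 h 0 to 1 E1 enzymes. At least 10 counts in every library left fewer unigenes to test, and gave 1 E1 enzyme and 3 ubiquitin proteases at 2 h, and 5 ubiquitin and ubiquitin-like unigenes and 6 ubiquitin proteases at 12 h. Over all unigenes that filter gave 3262, 6010 and 4216 calls, against 6750, 13609 and 10028. DESeq2 called 0 E1 enzymes at 2 h. Pearson's correlation kept 6 of the 14 most similar pairs. With library totals as the only scaling the median change of all unigenes was 0.20 at 2 h, -0.11 at 12 h and -0.36 between them, and calls split into 4971 higher and 1822 lower, 6583 and 7148, and 3280 and 7327, against 4236 and 2514, 7078 and 6531, and 4526 and 5502. The 2 h libraries differed most from each other (SD of the log2 difference 0.507, against 0.255 in the controls and 0.247 at 12 h). With 2 libraries per group and 3 residual degrees of freedom small changes at 2 h could be missed. The groups shared 1 estimate of the spread, so errors at 2 h may be understated, with some false calls, and those at 12 h overstated. Fitted on only the 4 libraries compared, PHO2 had an SE of 0.294 at 2 h and 0.147 at 12 h, against 0.253 and 0.289. Such fits called 5958 unigenes at 2 h, against 6750, and 3 and 7 members at 2 h and 12 h, as before.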

Other observations

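Both unigenes of the E1 list were called higher at 2 h and neither at 12 h, beside 15.1% and 25.3% called higher over all unigenes. The list was chosen for change in these libraries, so this is not independent evidence of an early rise. ATUBA2 (c146810_g1), a ubiquitin-activating enzyme, rose by 1.183 ± 0.37 SE at 2 h (edgeR adjusted p = 0.0267) and differed by 0.71 ± 0.39 SE at 12 h (edgeR adjusted p = 0.131). SAE2 (c139840_g5), a weak match to a subunit of the E1 for SUMO, rose by 2.26 ± 0.60 SE at 2 h and differed by 0.70 ± 0.74 SE at 12 h. Its counts were near the floor of 3 in the controls (4 and 2) and at 12 h (4 and 5). For 12 h against 2 h, SAE2 fell by 1.55 (SE 0.56, edgeR adjusted p = 0.0373), and ATUBA2 was not called. At 12 h edgeR called 0 of the 2, 0 had an unadjusted p under 0.05 and DESeq2 called 0. Both calls at 2 h were lost without the second control library, 1 was lost without the first control or the first 2 h library, and DESeq2 called 0.

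The ubiquitin proteases, which remove ubiquitin from proteins, went both ways: 4 of 15 rose and 1 fell at 2 h (median 0.07), and 5 rose and 8 fell at 12 h (median -1.05). Over all unigenes 15.1% were called higher and 8.98% lower at 2 h, and 25.3% and 23.3% at 12 h. This list too was chosen for change in these libraries. At 2 h 2 were called without the first control library. UBP25 (c153219_g1) rose at both times, from a mean of 25.9 CPM to 55.6 CPM and 76.7 CPM (1.10 ± 0.16 SE and 1.57 ± 0.16 SE). UBP12 (c140671_g2), a weak match, rose from 0.08 CPM to 5.95 CPM at 12 h, with control counts of 1 and 0, below the floor of 3. UBP5 (c155772_g1) fell by 1.97 at 12 h (SE 0.26) and UBP15 (c155580_g1) by 2.25 (SE 0.36).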
